A study of Mus musculus with 24 samples.

Results

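The interaction of Cited2 genotype with interleukin 4 (IL4) asks, gene by gene, whether macrophages that lack CITED2 answer IL4 differently from wild type macrophages. For each gene the log2 difference between IL4 and control in wild type (WT) cells was subtracted from the same difference in CITED2-KO (KO) cells, on log2 of the deposited value plus 1. The members were the 17050 genes, of 43629 identifiers in the table, that reached a value of 1 in 3 or more of the 12 libraries. A positive interaction means that the change with IL4 has the higher value in KO, as a larger rise or a smaller fall, and a negative interaction the reverse. Each called gene was then sorted by shape, as a response larger, smaller or reversed in KO, and genes whose genotypes differed alike with and without IL4 were set apart as a baseline shift.

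The cells were bone marrow-derived macrophages (BMDMs), grown in culture from marrow precursors of C57BL/6 mice labelled as 10 weeks old. The 4 groups were WT control, WT with IL4, KO control and KO with IL4, each with 3 libraries of total RNA. The remaining 12 libraries of the series, of the same genotypes given LPS or IFNg, were used only where stated. The dose and duration of IL4, the allele and the way the gene was deleted, and whether replicates were separate animals or cultures are not in the labels, so that a p-value here reflects no more than the variation among these libraries, which may be technical.

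IL4 binds its receptor on macrophages and activates the kinases of the JAK family and the transcription factor STAT6, which switches on the alternative activation program: arginase 1, the mannose receptor, chitinase-like and resistin-like secreted proteins, and chemokines that attract other cells of type 2 immunity. CITED2 is a transcriptional co-regulator with no DNA-binding domain. It binds a domain of the coactivators CBP and p300 that hypoxia-inducible factor HIF-1 and several STAT proteins also use, and is best known as a brake on HIF-1. Interferon-stimulated genes form a separate program, switched on after type I interferon by a complex that includes STAT2 and IRF9, and aimed at viruses.

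Each of the 4 groups rested on 7818719 (WT control replicate 3) to 35227110 reads (WT control replicate 1), and 1 read was worth between 0.539 and 2.44 in value. Cited2 itself (ENSMUSG00000039910; chromosome 10, 17723218 to 17725674, plus strand) was at 2298, 2179 and 2144 in WT control and 1117, 1207 and 1120 in WT with IL4. It was at 20.2, 39.7 and 23.7 in KO control and 12.4, 14.3 and 8.52 in KO with IL4, so that every KO library matched its label. The macrophage genes Adgre1 (listed as Emr1), which encodes F4/80, Csf1r, the receptor for the macrophage growth factor, and Cd68 were at 30050 or more in all 12 libraries. The other macrophage markers examined were lower: Itgam at 7291 to 13080, Cd14 at 2106 to 6827, Mertk at 1622 to 2154, Fcgr1 at 1208 to 2901 and Lyz2 at 323 to 1249. Some differed between genotypes, as Lyz2 with a mean of 341 in KO control and 654 in WT control. Of the markers of other cell types, Ly6g (neutrophils) and Hbb-bs (erythroid cells) had no read, and Flt3 (dendritic cells), Pax5 (B cells) and Epx (eosinophils) had at most 3 reads in any library. Others were present: Siglecf (eosinophils, also macrophages of some tissues) was at 171 to 929, Col1a1 and Pdgfra (fibroblasts) at 19.9 to 106 and 20.2 to 43.9, Zbtb46 (dendritic cells) at 2.45 to 30, and Cpa3 (mast cells) and Elane (neutrophils) at no more than 11.9 and 9.67. Siglecf rose with IL4 and was higher in KO, with means of 179 and 484 in WT control and IL4 and 476 and 896 in KO, and Zbtb46 had means of 25.8 in WT and 11.7 in KO with IL4.

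Of the 17050 genes, 1115 (6.54%) had a called interaction, meaning a Benjamini-Hochberg adjusted p below 0.05 from limma over all genes tested. The interaction was positive for 657 genes (3.85%) and negative for 458 (2.69%), and for 198 it was at least 1 on the log2 scale, 150 of them positive. For comparison, IL4 raised 15.2% and lowered 16.4% of all genes in WT, and raised 18.3% and lowered 17.5% in KO. The share of positive calls depended on the scaling of the libraries: it was 58.9% as deposited, 56.1% with TMM scaling, 53.8% in edgeR, 50.2% in DESeq2 and 44.1% with the median of each library set equal. The number of calls was 732 without WT IL4 replicate 3 and 733 without KO control replicate 1, and negative calls numbered 805 without WT control replicate 3, the shallowest library. Without WT IL4 replicate 1, WT IL4 replicate 3 or KO control replicate 1, negative calls numbered 285, 283 and 275. None of the 1115 calls changed sign under any of the 24 alternatives run.

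A larger response in KO was the most frequent shape, with 434 larger rises (median size of the interaction 0.553 on the log2 scale) and 242 larger falls (0.458). Rise and fall are named by the KO response. For 93 of the larger rises and 78 of the larger falls the WT estimate had the opposite sign, without a called change in WT. A smaller response was found for 373 genes, 194 smaller rises and 179 smaller falls, with medians of 0.467 and 0.413. Without the same 3 libraries in turn, 238, 215 and 235 smaller responses were called. For 57 genes both responses passed the test with opposite signs, and 9 had no called response in the genotype where it was larger. The larger rises also held most of the large interactions, 117 of the 198 with a size of at least 1. The shapes differed in where the genotypes stood apart: of the 434 larger rises, KO and WT differed only with IL4 for 245 and only in control for 61, whereas of the 194 smaller rises they differed only with IL4 for 69 and only in control for 76. These counts sort the called genes by the same libraries and are a description. On the linear scale of the deposited values the difference of the responses had the opposite sign for 30 of the 1115 genes.

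**Figure D1:**
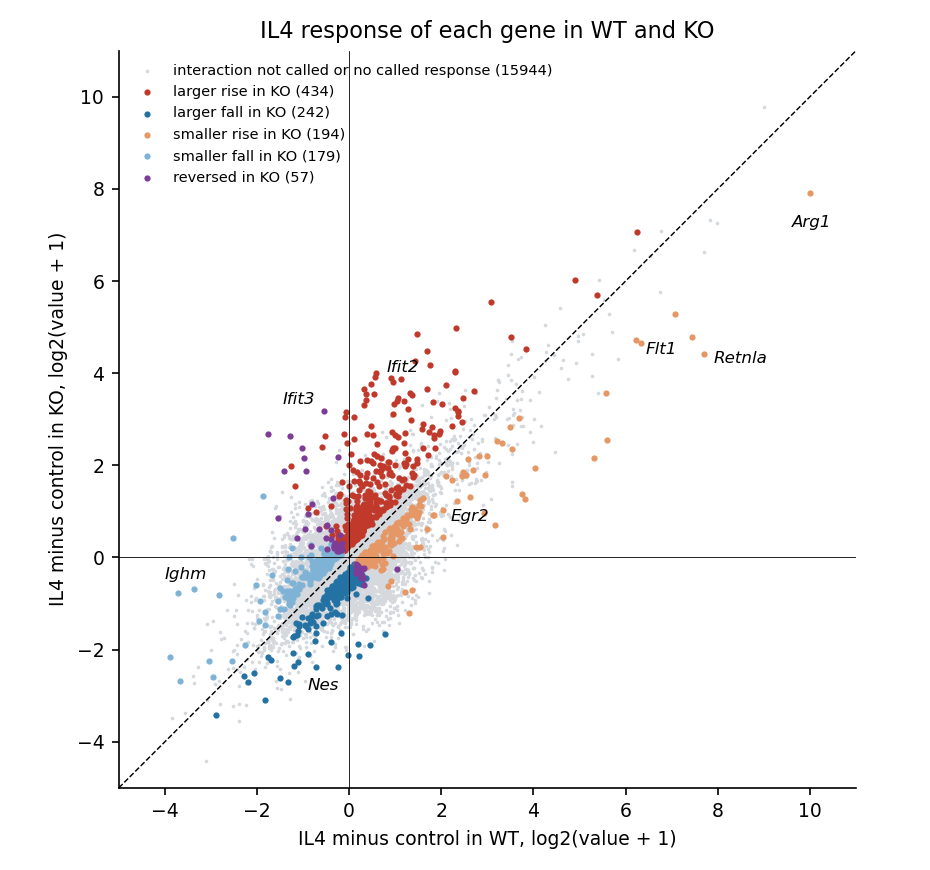
Change with IL4 in WT (horizontal axis) and in KO (vertical axis) for each of the 17050 genes, as differences of log2(value + 1) between means of 3 libraries. Colours mark the shapes of the called interactions, the dashed line marks equal responses, and the 434 larger rises, 190 of them with no called change in WT, lie above it, while the strongly induced Arg1, Retnla and Flt1 lie below it.

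Interferon-stimulated genes made up the clearest block. Of 39 type I interferon-stimulated genes tested, 37 had a positive and none a negative interaction, beside 3.85% and 2.69% of all genes. Their median was 1.44 on the log2 scale beside 0.01 over all genes. The median change with IL4 was 0.51 in WT and 2.10 in KO. By shape 33 were larger rises and 4 were reversed, and the 2 not called were Trim25 (adjusted p = 0.077) and Isg20 (adjusted p = 0.088). In IL4-treated cells all 39 were higher in KO by the test, beside 9.95% of all genes, and for all 39 every KO library lay above every WT library, which held for 19.2% of all genes. In control cells 7 of the 39 were higher and 7 lower in KO, with 6.67% and 5.98% of all genes as background. The count of positive calls ranged from 36 to 39 over the 24 alternatives.

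Ifit1 (ENSMUSG00000034459; chromosome 19, 34640871 to 34650009, plus strand), whose protein binds viral RNA lacking a host cap, was at 333, 438 and 310.2 in WT control and 435, 449 and 486 in WT with IL4. In KO it went from 241, 237 and 318 in control to 3235, 2959 and 3120 with IL4. The 3 KO IL4 libraries stood far above the other 9, and the control groups overlapped. The interaction was 3.20 ± 0.16 (SE, n = 3 per group; adjusted p = 1.5e-10). Its neighbour Ifit2 (chromosome 19, 34550694 to 34576419, plus strand) was at 878, 1343 and 816 in control and 1376, 1452 and 1526 with IL4 in WT. In KO it was at 1119, 1018 and 1294 in control and 19369, 15695 and 17137 with IL4, a 15.2-fold higher mean with IL4 beside 1.43-fold in WT. Ifit2 in KO thus reached 17400 from a control level that did not pass the test between genotypes (log2 difference 0.20 ± 0.13, adjusted p = 0.38).

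Ifit3 (chromosome 19, 34583531 to 34588731, plus strand), which lies in the same cluster and encodes a partner of Ifit1, was reversed. In WT it fell from 213, 351 and 232 to 175, 179 and 179.9, and in KO it rose from 189.9, 199 and 231 to 1963, 1820 and 1865. The 3 WT IL4 libraries all lay below the 6 control libraries of both genotypes, and the 3 KO IL4 libraries all above them. Its interaction of 3.73 ± 0.18 (adjusted p = 1.2e-10) was larger than that of Ifit1 or Ifit2. Rsad2, the gene of viperin, an enzyme that makes a chain-terminating nucleotide, was at 601, 702 and 601 in WT control and 525, 541 and 529 in WT with IL4. In KO the values were 785, 794 and 1010 in control and 4192, 3541 and 4000 with IL4, with an interaction of 2.44 ± 0.12. Reads of Ifit3 may be shared with its close copy I830012O16Rik, and the same holds for the Oas1, Gbp and Trim30 families, since the handling of such reads is not given in the sources used here.

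The antiviral effectors, the sensors and the regulators moved together. Among effectors, Mx1, a GTPase against influenza viruses, was at 104, 101 and 103 in WT with IL4 and 728, 617 and 706 in KO with IL4, and its interaction was 3.14 ± 0.18. Isg15, a ubiquitin-like modifier, rose in both genotypes, from 126, 174 and 149 to 459, 476 and 503 in WT and from 155, 151 and 132 to 1764, 1965 and 1816 in KO. Ifi44 went from 95, 73.2 and 110.5 to 2901, 2541 and 2591 in KO. Oas2, which makes the messenger that activates RNase L, and Cmpk2, a nucleotide kinase beside Rsad2, had interactions of 1.87 and 2.45.

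Regulators of the pathway were part of the block. Irf7, the factor that amplifies interferon production, was at 240.5, 365 and 327 in control and 612, 608 and 566 with IL4 in WT, and at 412, 405 and 385 in control and 3240, 3834 and 3416 with IL4 in KO. Stat2 and Irf9 encode subunits of the interferon-activated complex. Stat2 went from 1243, 1487 and 1170 to 1837, 1810 and 1876 in WT and from 1151, 1178 and 1175 to 3992, 3705 and 3922 in KO, so that WT also rose but no WT IL4 library reached the KO range. The interaction was 1.22 ± 0.10 for Stat2 and 0.87 ± 0.09 for Irf9. The RNA sensors Ddx58 (RIG-I) and Ifih1 (MDA5) had interactions of 1.33 and 0.98, and Usp18, which trims Isg15 and dampens the receptor, one of 1.41.

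**Figure D2:**
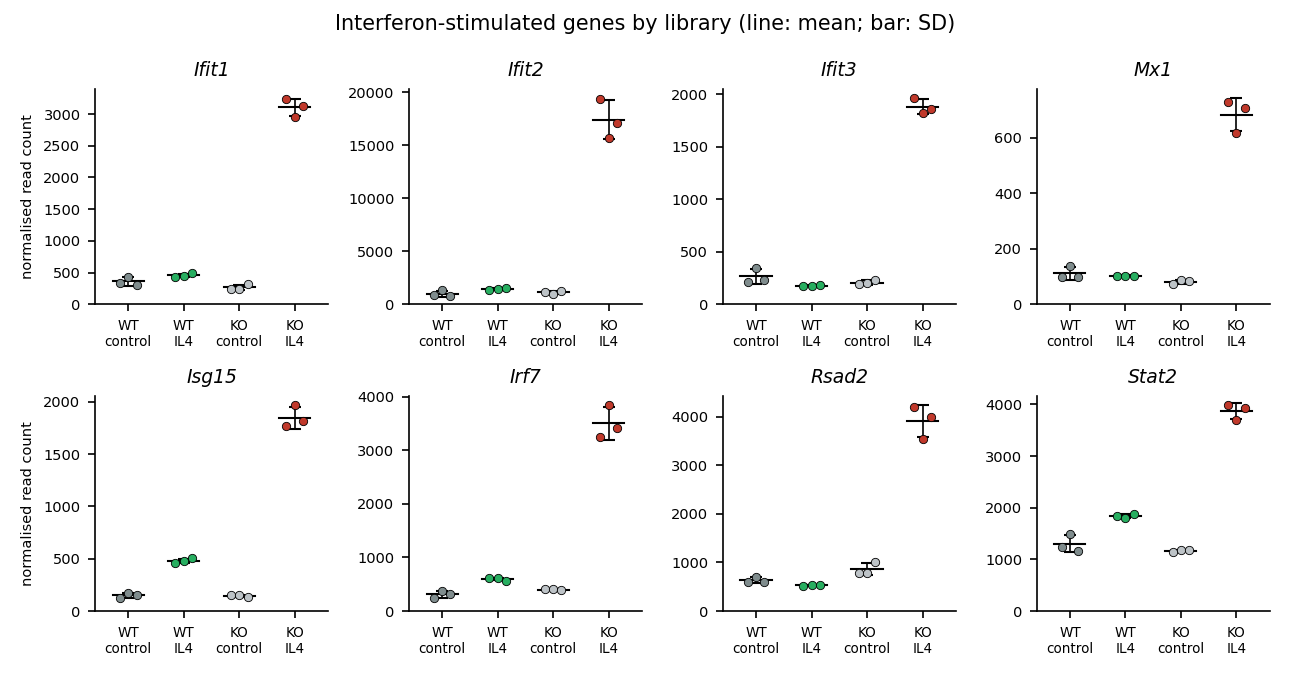
Normalised read count of 8 interferon-stimulated genes in each library (points), with the group mean (line) and SD (bar), for WT control, WT IL4, KO control and KO IL4, 3 libraries each. In all 8 panels the 3 KO IL4 points lie above every other point, as for Ifit1 at 2959 to 3235 beside at most 486 elsewhere.

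Transcripts of the interferons themselves were not detectable at this depth. The 19 type I interferon genes in the table together had 0 or 1 read in each of the 12 libraries, Ifnb1 had at most 1 read, and Ifng at most 3. Ifnar1, a chain of the type I receptor, had an interaction of -0.02 ± 0.07. In KO with IL4 the median gene of the 39 was below its level in treated wild type cells elsewhere in the series. It was at 50.6% of its WT IFNg level and 14.6% of its WT LPS level, compared with 14.9% and 4.93% in WT with IL4. Single genes in KO with IL4 ranged from 11.7% to 148% of WT IFNg and from 0.828% to 58.8% of WT LPS. Ifit3, with a mean of 1883, was above its WT IFNg mean of 1527. Dendritic cell markers summed to 5967 to 6739 in KO with IL4, 4567 to 4878 in WT with IL4 and 3390 to 4490 in the control libraries. That sum includes Bst2, itself interferon-stimulated, at 3891, 4876 and 4077 in KO with IL4, and Flt3 had at most 2 reads. T and NK cell markers summed to 16828 to 19319 in KO with IL4 and 13119 to 13433 in WT with IL4, beside 25252 to 28226 in KO control and 20609 to 22125 in WT control, while Cd3e, which defines T cells, had at most 9 reads. The part of these markers in the result was not tested. In bulk RNA, fewer cells of a type and less RNA per cell cannot be told apart.

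Promoter stretches of 3 of these genes are shown because the members moved together, with that of Retnla, an IL4 target. The motif TTTCNNTTTC, a form of the interferon-stimulated response element that was added after the values were seen, was searched on both strands in RefSeq promoters of GRCm38.p6, from 250 bases before to 50 after each start. It was in 14 of 33 promoters of the type I interferon-stimulated list (42.4%), in 15.2% of promoters of larger rises, 17.5% of reversed genes, 1.4% of smaller rises and 3.32% of all 14420 promoters of genes tested. The palindrome TTCNNNNGAA, the STAT6 type, was in 8 of 35 promoters of the alternative activation list (22.9%), in 7.91% of smaller rises, 8.05% of larger rises, 21.2% of the interferon-stimulated list and 5.69% of all. Ifit2 also holds a STAT6-type match, in a stretch not printed here. The other STAT palindrome, TTCNNNGAA, was in 10.6% of promoters of larger rises and 5.12% of smaller rises. It was in 21.2% of the interferon-stimulated list, 14.3% of the alternative activation list and 6.97% of all. The core of the hypoxia response element, ACGTG, was in 19.3% of larger rises, 25.1% of smaller rises and 24.5% of all. A promoter table entry was found for 11356 of the 17050 genes, and a match is a description of the letters only. The printed stretches run 5′ to 3′ on the strand of the gene, with the matches in capitals (chr19:34640744-34640873, plus strand, for Ifit1, chr19:34583347-34583476, plus strand, for Ifit3, chr12:26456503-26456632, minus strand, for Rsad2, and chr16:48842404-48842533, plus strand, for Retnla, the last with the STAT6 type and the others with the response element). Ifit1 and Ifit3 hold 2 matches each.
Ifit1: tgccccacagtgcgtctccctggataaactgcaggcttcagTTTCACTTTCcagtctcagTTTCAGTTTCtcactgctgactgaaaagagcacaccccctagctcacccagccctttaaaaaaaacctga
Ifit3: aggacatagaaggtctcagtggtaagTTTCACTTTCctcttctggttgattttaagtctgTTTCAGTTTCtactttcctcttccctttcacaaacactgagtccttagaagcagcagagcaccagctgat
Rsad2: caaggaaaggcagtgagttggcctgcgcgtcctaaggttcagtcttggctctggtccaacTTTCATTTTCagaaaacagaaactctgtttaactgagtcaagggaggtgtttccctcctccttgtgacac
Retnla: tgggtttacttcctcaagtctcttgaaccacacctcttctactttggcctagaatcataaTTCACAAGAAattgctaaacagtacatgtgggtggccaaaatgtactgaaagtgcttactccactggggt

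Genes best known from interferon gamma responses and antigen presentation formed a further list. Of 39 tested, 17 had a positive and none a negative interaction (median 0.34), beside 3.85% and 2.69% of all genes. All 17 were larger rises. They were mainly guanylate-binding proteins and immunity-related GTPases, which attack the vacuoles of intracellular microbes. Gbp5 went from 65.2, 73.5 and 95.3 to 216, 208 and 205 in WT and from 37.4, 57.5 and 54.4 to 1096, 839 and 978 in KO, an interaction of 2.84 ± 0.22. Irgm2 was at 875, 963 and 796 in control and 875, 885 and 872 with IL4 in WT (log2 change with IL4 0.00, adjusted p = 0.98), and at 724, 717 and 738 in control and 2332, 1938 and 2111 with IL4 in KO. Another 11 of the 39 were baseline shifts, beside 4.3% of all genes. The MHC class II genes H2-Aa, H2-Ab1 and H2-Eb1 and the invariant chain gene Cd74 were baseline shifts, lower in KO with and without IL4. Cd74, for example, went from 3032, 3372 and 2875 to 24107, 24129 and 23515 in WT and from 1995, 2384 and 1882 to 16211, 18878 and 17798 in KO, with an interaction of 0.13 ± 0.11 (95% interval -0.10 to 0.35). The class I genes H2-K1 and H2-D1, B2m and the checkpoint ligand gene Cd274 were shifted the other way, higher in KO in both conditions. Ciita, the master regulator of class II genes, was lower in KO control (33.1, 33.5 and 30.7 beside 63.1, 53.5 and 53.7 in WT) and reached 397, 405 and 413 in KO and 433, 339.9 and 356 in WT with IL4, a larger rise by 0.90 ± 0.17.

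Inflammatory genes followed in part. Of 45 cytokines, chemokines and NF-kB targets, 15 had a positive and none a negative interaction (median 0.43), beside 3.85% and 2.69% of all genes. The positive count ranged from 11 to 19 over the alternatives. Cd86, the costimulatory ligand of CD28, was at 121, 126 and 122 in control and 205, 229 and 172 with IL4 in WT and at 113, 116 and 123 in control and 621, 502 and 463 with IL4 in KO. The control groups overlapped and the IL4 groups did not, with an interaction of 1.46 ± 0.17 (adjusted p = 7.2e-06). Tnf went from 176, 173 and 227 to 319.9, 302 and 291 in WT and from 117, 106 and 142 to 420.2, 440.4 and 459 in KO, so that KO started lower and ended higher. Nos2, the inducible nitric oxide synthase, reached 115, 141 and 124 in KO with IL4 beside 36.9, 37.2 and 30.1 in WT, an interaction of 2.99 ± 0.49. Its control values were 8.63, 16.8 and 39.1 in WT and 8.58, 6.27 and 7.89 in KO, from 6 to 26 reads, and its KO level with IL4 was far below the mean of 60164 in WT with LPS. Ccl5, a chemokine that IL4 raised strongly, went to 2559, 2344 and 2855 in WT and 5626, 7640 and 6366 in KO (adjusted p of the interaction 0.048). Cxcl10, the interferon-induced chemokine for T cells, was reversed, with overlapping control groups, from 34.5, 43.9 and 103 to 27.1, 25.7 and 30.1 in WT and from 27, 36.6 and 36 to 116, 109 and 148 in KO. Il6, Il12b and Cxcl11 were at 9.77 or less in all 12 libraries, and the NF-kB subunit genes Nfkb1, Rela and Rel did not pass, with interactions of -0.08, -0.11 and 0.06.

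The alternative activation genes leaned the other way. Of 43 tested, 10 had a negative and 2 a positive interaction (median -0.51), beside 2.69% and 3.85% of all genes. Baseline shifts numbered 9, beside 4.3% of all genes. IL4 raised 36 of the 43 in WT and 35 in KO, beside 15.2% and 18.3% of all genes. With IL4, 15 were lower and 6 higher in KO by the test, beside 7.41% and 9.95% of all genes. Thus most of the program was induced in both genotypes. The differences are described by 3 kinds: a lower level in KO with IL4, a higher starting level in KO control, and a shift in both conditions. Some members lay outside or across these kinds. For 1 negative and 1 positive call the genotypes differed in opposite directions in control and with IL4.

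Arg1 (ENSMUSG00000019987; chromosome 10, 24915221 to 24927484, minus strand), the gene of arginase 1, which turns arginine into ornithine and urea, is placed with the first kind by its level with IL4. It was nearly silent in control cells, at 3.23, 2.58 and 2.44 in WT and 1.23, 0 and 1.75 in KO, which were 1 to 6 and 0 to 2 reads. On those few reads KO was called lower in control as well (log2 difference -1.03 ± 0.26, adjusted p = 0.0096). With IL4 Arg1 reached 3908, 4078 and 3539 in WT and 468, 420.2 and 441 in KO. The IL4 groups did not overlap, and KO stood at 11.5% of WT, a log2 difference of -3.11 ± 0.26 (adjusted p = 2.6e-08). The interaction, -2.08 ± 0.36 (adjusted p = 9.9e-04), rested on the few control reads as well and was lost in edgeR (adjusted p = 0.28), in DESeq2 (0.19) and in the fit of all 24 libraries (0.1). Retnla (chromosome 16, 48842551 to 48844461, plus strand), the secreted resistin-like alpha, had no read in any of the 6 control libraries. With IL4 it was at 198, 215 and 209 in WT and 20.1, 26 and 16 in KO, which is 9.98% of WT and a log2 difference of -3.29 ± 0.32. Because both controls were at 0, the size of its interaction depends on the pseudocount and no fold response can be given, and the same holds for Rnase2a, at 141, 205 and 179 in WT and 34.9, 28 and 19.2 in KO with IL4. The interaction of both was not called in edgeR or DESeq2. Myc was at 40.4, 27.1 and 36.6 in control and 216, 218 and 218 with IL4 in WT and 28.8, 33.5 and 22.8 in control and 75.1, 67.7 and 72.4 with IL4 in KO, a smaller rise by -1.30 ± 0.25 that was called in all alternatives.

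For a group of regulators and surface proteins the genotypes differed in control cells and met with IL4. Egr2 (chromosome 10, 67535475 to 67542188, plus strand), a zinc finger factor that IL4 induces and that helps set the late alternative program, was at 1274, 1294 and 1292 in WT control and 2587, 2509 and 2426 in KO control. With IL4 it was at 4753, 4485 and 4662 in WT and 4743, 4773 and 4830 in KO. The control groups lay well apart, and with IL4 the log2 difference was 0.05 ± 0.04 (adjusted p = 0.55), which together gave an interaction of -0.92 ± 0.06 (adjusted p = 8.9e-09). Flt1, a receptor for vascular endothelial growth factor, went from 60.9, 53.5 and 61.1 to 4617, 4355 and 4444 in WT and from 191, 181 and 222 to 5278, 4802 and 5702 in KO. The interaction was -1.51 ± 0.11, and with IL4 the log2 difference between genotypes was 0.23 ± 0.08 (adjusted p = 0.055). The 3 KO libraries with IL4 all lay above the 3 of WT, and on the linear scale the rise of Flt1 was the larger in KO. Fn1, which encodes fibronectin, rose from 360.1, 388 and 357 to 2101, 2153 and 2158 in WT and from 632, 628 and 561 to 1958, 1998 and 2318 in KO. Ccl8, a chemokine of type 2 inflammation outside the list, had the same pattern, with 49.6, 38.7 and 41.5 in control and 420.2, 399 and 365 with IL4 in WT and 267, 251 and 242 in control and 487, 404 and 359.9 with IL4 in KO. So did Itgax, the CD11c integrin gene, whose interaction was -0.66 ± 0.07. For these 5 genes the IL4 levels in KO were between 0.932 and 1.18 times those of WT.

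Other hallmarks showed a shift or no called difference. Chil3, the chitinase-like protein Ym1, was at 493, 493 and 420.1 in control and 14798, 14882 and 14420 with IL4 in WT and 332, 401 and 353 in control and 10326, 9095 and 8846 with IL4 in KO. The interaction was -0.27 ± 0.10 (adjusted p = 0.15, 95% interval -0.49 to -0.05), and both conditions were lower in KO. Mrc1, the mannose receptor, was also lower in KO in both conditions, with log2 differences of -0.62 and -0.46 and an interaction of 0.16 ± 0.10. The PD-1 ligand gene Pdcd1lg2 rose to 750.0, 778 and 697 in WT and 844, 746 and 806 in KO, which overlapped. Irf4, a factor required for the program, rose to 968, 1011 and 926 and 853, 795 and 825. Its KO libraries were all below the WT ones, by a log2 difference of -0.23 ± 0.11 that did not pass (adjusted p = 0.17). The chemokine genes Ccl22 and Ccl24 had few reads in control cells, and their interactions of -0.84 ± 0.56 and -0.71 ± 0.61 did not pass. That of Ccl22 was called in 2 of 24 alternatives (lowest adjusted p = 0.024). With IL4 Ccl22 was at 202, 178 and 193 in WT and 94.6, 72.2 and 124 in KO, 50.7% of WT (adjusted p = 0.089). Ccl24 in KO was at 63.8% of WT with IL4 (adjusted p = 0.36). For both genes the KO libraries with IL4 all lay below the WT ones. Ptgs1, the constitutive cyclooxygenase, was the list's larger rise, from 568, 595 and 539.8 to 2972, 2897 and 2896 in WT and from 219.9, 196 and 217 to 1842, 1784 and 1743 in KO, where it stayed lower throughout. On the linear scale its rise was the smaller in KO.

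As fitted here, no called interaction was found for the transcripts of STAT6 and of the receptor chain that IL4 binds. Stat6 was at 5458, 5648 and 5441 in WT and 5755, 5783 and 5869 in KO with IL4, with an interaction of 0.07 ± 0.06 (adjusted p = 0.54, 95% interval -0.05 to 0.20). Il4ra, the gene of that chain, had an interaction of 0.34 ± 0.11 (adjusted p = 0.062), which was called in 3 of 24 alternatives (lowest adjusted p = 0.0088), and its values overlapped between genotypes with IL4. In control cells Il4ra was lower in KO, at 955, 940 and 934 beside 1063, 1259 and 1331 in WT. That log2 difference was -0.362 ± 0.075 (adjusted p = 0.0021). Of 24 genes of the pathway 3 had a positive and none a negative interaction, beside 3.85% and 2.69% of all genes. The largest was that of Ptpn6, the phosphatase SHP-1, a brake on cytokine receptors, which rose from 3791, 4098 and 3780 to 6039, 6424 and 6574 in KO beside 4321, 4469 and 4616 to 4832, 4751 and 4815 in WT.

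**Figure D3:**
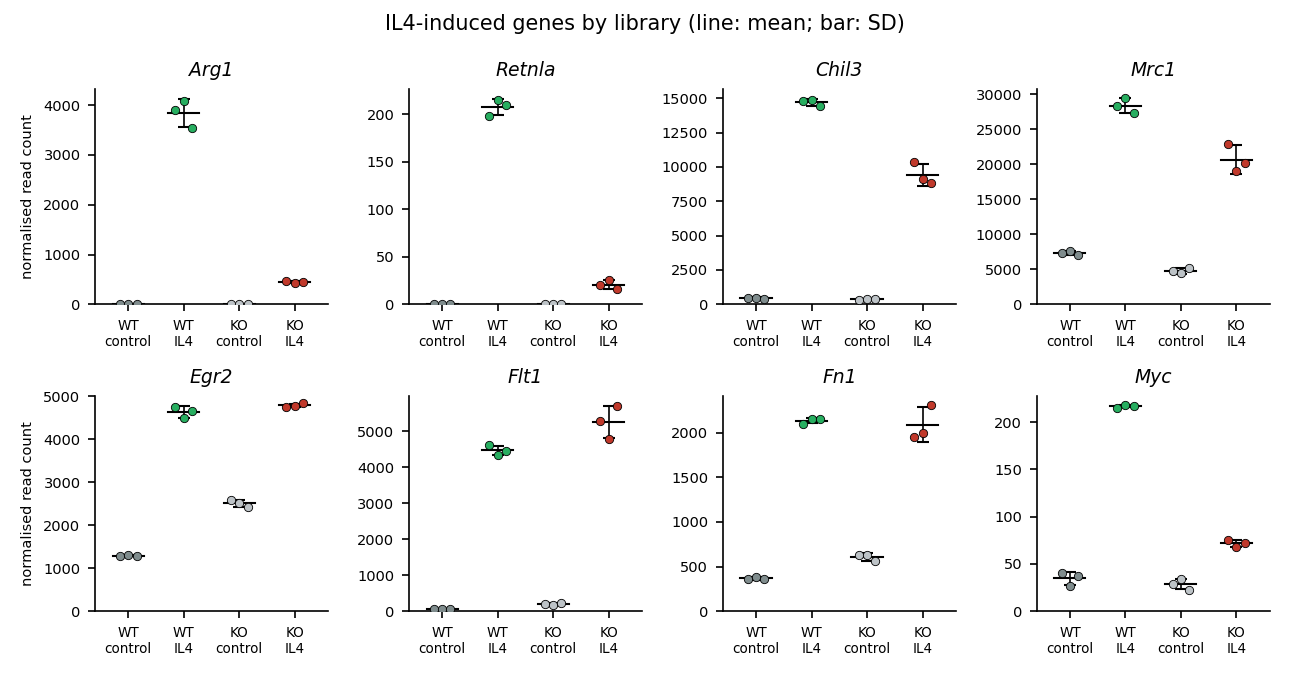
Normalised read count of 8 IL4-induced genes in each library (points), with the group mean (line) and SD (bar), for WT control, WT IL4, KO control and KO IL4, 3 libraries each. Arg1, Retnla, Chil3, Mrc1 and Myc end lower in KO with IL4, Arg1 at 420.2 to 468 beside 3539 to 4078 in WT, while Egr2, Flt1 and Fn1 start higher in KO control and end near the WT level.

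Immediate early genes are switched on within minutes by growth and stress signals. Among 30 tested, 11 had a negative and none a positive interaction (median -0.31), beside 2.69% and 3.85% of all genes. In the fit of all 24 libraries 7 were negative. Besides Myc and Egr2 the 11 included the AP-1 genes Junb, Jund, Jun and Fosl2. Fosl2 rose from 537, 625 and 557 to 1491, 1436 and 1388 in WT and from 686, 674 and 663 to 1125, 993 and 1003 in KO, an interaction of -0.71 ± 0.09. Dusp4, a phosphatase that switches off ERK kinases, rose to 1996, 2002 and 1994 in WT and 1795, 1666 and 1646 in KO. Klf4, a factor of alternative activation, had the pattern of Egr2, at 139, 150.3 and 147 in WT control, 208, 225 and 209.6 in KO control, and 371, 381 and 421 and 433, 379 and 433 with IL4. Fos was a baseline shift, at 164, 149.5 and 160.5 in KO control beside 343, 318 and 318 in WT.

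Lipid genes also had more negative than positive calls. Of 31 genes of PPARg, LXR and lipid handling, 9 had a negative and 1 a positive interaction (median -0.11), beside 2.69% and 3.85% of all genes. The negative count ranged from 6 to 11 over the alternatives. Lpl, the lipoprotein lipase, rose from 56399, 58379 and 58279 to 82694, 83660 and 88096 in WT and lay between 52082 and 60449 in all 6 KO libraries. The interaction was -0.58 ± 0.08 (adjusted p = 1.4e-04). Cd36, the fatty acid and oxidised lipoprotein receptor, started higher in KO control (28725, 26937 and 30083) than in WT control (21232, 21756 and 20817) and met WT with IL4. Nr1h3, the sterol receptor LXR alpha, and Pparg, the lipid-sensing nuclear receptor, were smaller rises as well, by -0.50 ± 0.11 and -0.24 ± 0.07, but the call for Pparg was lost in 12 of 24 alternatives. Ucp2, a mitochondrial carrier, was higher in KO control (12509, 13720 and 11563) than in WT control (6890, 6906 and 8111) and fell with IL4 in KO to 7169, 8755 and 8187. HIF-1 targets and glycolysis genes had 6 negative and 2 positive interactions among 48 (median -0.08), beside 2.69% and 3.85% of all genes. For 5 of the 6 negative ones (Slc2a1, Hk2, Pfkp, Eno2 and Epas1) the genotypes differed only in control. The exception was the HIF-1 target Ankrd37, which fell from 243, 223 and 212 to 86.5, 73.8 and 77.3 in WT and from 296, 307 and 303 to 51.4, 43.6 and 51.1 in KO, higher in KO control and lower in KO with IL4. The calls for Ankrd37 and Eno2 were lost in the fit of all 24 libraries (adjusted p = 0.15 and 0.11). Of 24 cholesterol biosynthesis genes 5 had positive interactions, beside 3.85% of all genes, among them Insig1 (0.35 ± 0.10) and Fdps (0.32 ± 0.09). The count was 0 with the medians set equal and in the fit of all 24 libraries. It was also 0 without WT IL4 replicate 1, WT IL4 replicate 3 or KO control replicate 1.

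Among larger falls with a mean of at least 20 in a group, Nes, which encodes the intermediate filament nestin, had one of the larger interactions. It fell from 219, 215 and 234 to 132, 155 and 122 in WT and from 513, 538 and 551 to 111, 99.5 and 96.9 in KO, so that KO was the higher genotype in control and the lower with IL4. The interaction was -1.66 ± 0.14 (adjusted p = 1.8e-07). Hal, histidine ammonia-lyase, which starts histidine breakdown, was at 11.3, 12.3 and 7.33 in WT control and 1886, 1990 and 1812 in KO control. With IL4 it fell in KO to 522, 503 and 576, which was still far above the 6.34, 5.15 and 12.2 of WT, where 9 to 13 reads were counted. Its interaction was not called in the fit of all 24 libraries. S100a9, a calcium-binding protein of neutrophils and young monocytes, fell to 257, 215 and 206 in WT and 92.2, 105 and 88.4 in KO from control levels that overlapped. Ltf, lactoferrin, also fell further in KO, with an interaction of -1.36 ± 0.24. Of 19 neutrophil markers 4 had a negative and 1 a positive interaction, beside 2.69% and 3.85% of all genes. These markers summed to 9451 to 9670 in WT with IL4 and 10597 to 11271 in KO with IL4, most of it from Csf3r and Itgal, which IL4 raised. Their part in the result was not tested. Adam8, a surface protease, was at 12388, 12735 and 13309 in control and 13659, 13710 and 13438 with IL4 in WT and fell from 10918, 11261 and 9797 to 6454, 7092 and 7066 in KO.

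Among smaller falls, Ighm, the constant region gene of the immunoglobulin mu chain, had a large interaction. In WT it fell from 991, 991 and 894 to 85.9, 62.9 and 69.7, whereas in KO it was already low in control, at 98, 89.9 and 99.97, and at 58.5, 48.8 and 61.8 with IL4. The interaction was 2.95 ± 0.18 (adjusted p = 1.9e-09), while Pax5, which defines B cells, had at most 2 reads in any library. The other called member of the B cell list was Igj, the gene of the immunoglobulin joining chain, with the opposite genotype difference. It was at 74.4, 81.9 and 95.3 in control and 43.8, 37.2 and 21.7 with IL4 in WT, and at 633, 748 and 662 in control and 621, 540.0 and 561 with IL4 in KO. The change of Igj in KO did not pass the test (adjusted p = 0.31), and on the linear scale its mean fell more in KO. Maf, a factor of mature macrophages, fell from 7866, 8526 and 8082 to 3967, 4025 and 3788 in WT and was at 4680, 4544 and 4817 in control and 4510, 3786 and 3925 with IL4 in KO. The genotypes of Maf thus differed in control and overlapped with IL4. Fcgr4, an activating receptor for IgG, was lowered by IL4 in WT, from 1080, 1100 and 967 to 596, 592 and 529 but not detectably in KO, from 1698, 1563 and 1549 to 1719, 1590 and 1525. Fcgr1, the high-affinity IgG receptor and itself inducible by interferon, was reversed, from 2524, 2901 and 2648 to 1212, 1282 and 1208 in WT and from 1720, 1750 and 1814 to 2601, 2274 and 2254 in KO, an interaction of 1.55 ± 0.09. Fcgr2b, the inhibitory receptor of the family, had the opposite sign (-0.55 ± 0.07, positive on the linear scale), with 23371, 21698 and 22418 in KO and 16660, 16952 and 16895 in WT with IL4. Beside 3.85% and 2.69% of all genes, 10 interactions were positive and 7 negative among 37 macrophage identity genes. They include Lyz2, a frequent insertion site of myeloid Cre, which rose from 687, 651 and 623 to 1216, 1249 and 1212 in WT and from 323, 352 and 349 to 912, 977 and 935 in KO.

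The 57 reversed genes comprised 37 that IL4 lowered in WT and raised in KO and 20 with the opposite course, a count of 35 without WT IL4 replicate 3. Besides Ifit3, Rsad2, Cxcl10 and Fcgr1, the former held Ifitm3, which blocks entry of enveloped viruses, at 6062, 5781 and 5723 in control and 3012, 3196 and 2893 with IL4 in WT and 4287, 4181 and 4214 in control and 6438, 6919 and 6084 with IL4 in KO. Ly6a, the stem cell antigen Sca-1, which interferons induce, went from 85.2, 87.1 and 44 to 34, 32 and 33.9 in WT and from 43.5, 50.2 and 40.3 to 298, 234 and 189.6 in KO. Ms4a6b reached 696, 549 and 572 in KO with IL4 beside 121, 104 and 104 in WT, and Hcar2, the niacin receptor, 44.3, 35.8 and 33 beside 6.34, 9.15 and 1.88, the latter from 2 to 16 reads. Of the 20, Epas1, which encodes HIF-2 alpha, rose in WT from 1285, 1472 and 1590 to 1717, 1754 and 1736 and fell in KO from 2155, 2265 and 2088 to 1778, 1831 and 1896. The changes of Epas1 were small in both genotypes, at 0.27 and -0.24 on the log2 scale, and its KO level was higher in control and did not pass the test with IL4 (adjusted p = 0.45). Pdgfa, a platelet-derived growth factor chain, had the same course with an interaction of -0.55 ± 0.10.

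Other lists are given by their counts, beside a called interaction for 6.54% of all genes (3.85% positive and 2.69% negative). None of 47 oxidative phosphorylation genes had a called interaction (median -0.08), although IL4 raised their median by 0.42 in WT and 0.34 in KO. Unfolded protein response genes had 3 positive and 1 negative interaction among 32, with Asns, asparagine synthetase, the largest at 1.03 ± 0.10. TCA cycle genes had 1 call among 27, a positive one, and lysosome and autophagy genes 4 among 33, 3 positive and 1 negative. Cell cycle genes had 3 among 37, all positive. Of 15 genes of the Trim and Gvin region of chromosome 7, 7 were positive and none negative, as for Trim30a, a regulator of inflammasome and Toll-like receptor signals, at 3154, 3175 and 3241 in WT and 7734, 6328 and 6921 in KO with IL4. The levels did not all lie on that side: with IL4, 6 of the 15 were higher and 5 lower in KO by the test, beside 9.95% and 7.41% of all genes. In control 3 were higher and 7 lower, beside 6.67% and 5.98% of all genes. Trim34a, also a larger rise, stayed lower in KO, at 33.4% of the WT mean with IL4. Among markers of other cell types, fibroblast and mast cell lists had no call among 16 and 9 members. T and NK cell markers had 1 among 18, and Pf4, a platelet chemokine that macrophages also make, was the only call among 6 erythroid and megakaryocyte markers. Pf4 rose from 249, 222 and 247 to 1009, 973 and 979.8 in WT and from 273, 279 and 273 to 356, 425 and 352 in KO.

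**Figure D4:**
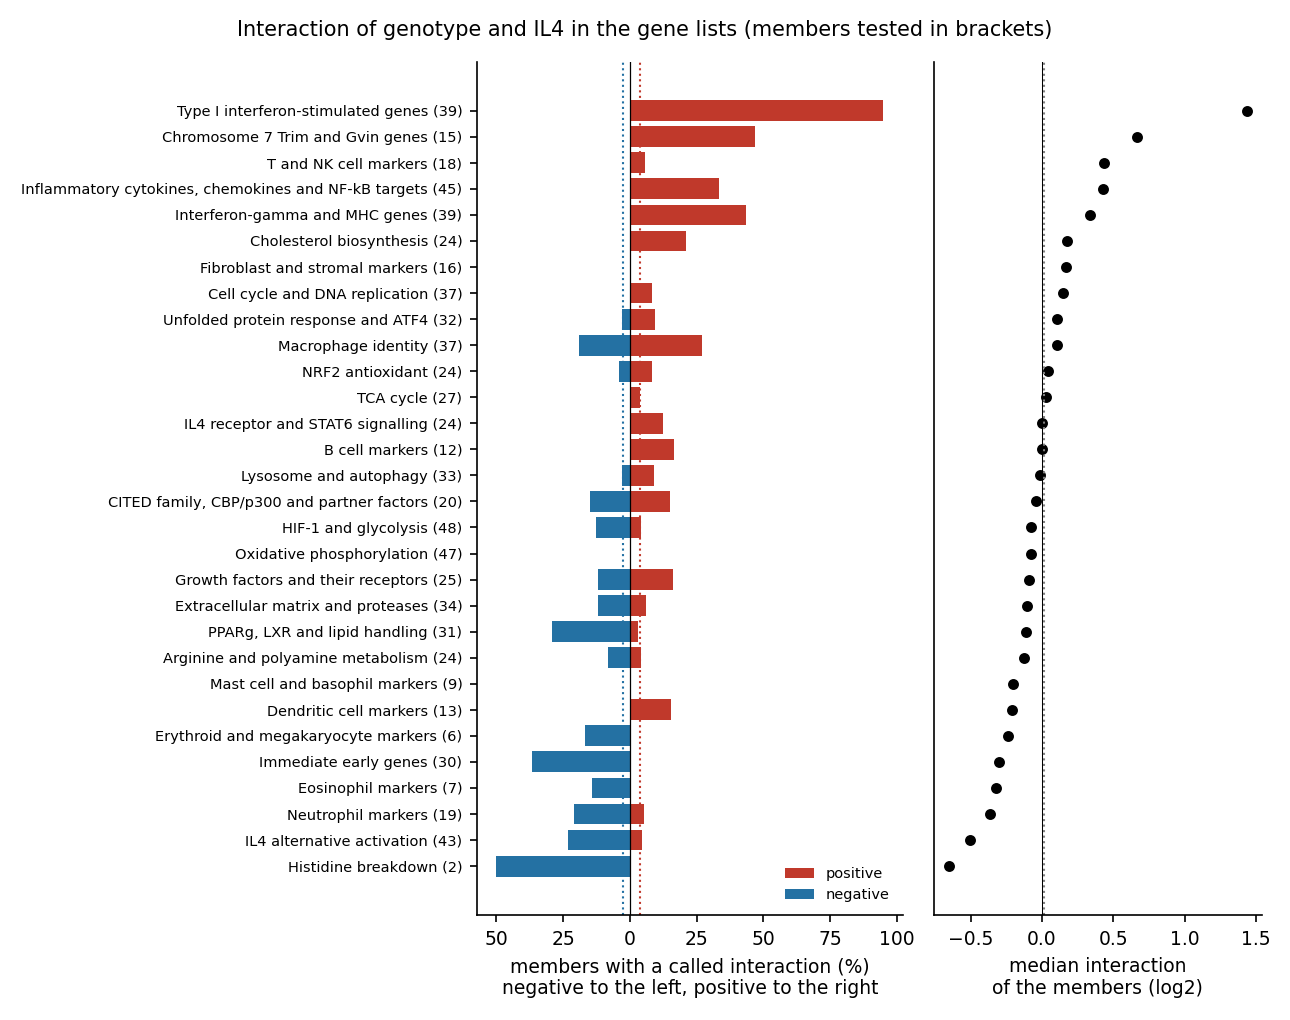
Gene lists in order of their median interaction, with the number of members tested in brackets. Left, percent of members with a called interaction, positive to the right and negative to the left, with dotted lines at the shares over all genes (3.85% and 2.69%). Right, median interaction in log2 units with a dotted line at the median of all genes. Type I interferon-stimulated genes (37 of 39 positive) stand apart at the top, and alternative activation genes (10 of 43 negative) lie near the bottom.

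A baseline shift alone was found for 734 genes (4.3% of those tested), 399 higher and 335 lower in KO: the genotypes differed the same way in control and with IL4, the interaction was not called, and its 95% interval lay within 1 of 0. Mmp12, the macrophage elastase, was at 16096, 15712 and 15312 in WT control and 54529, 52104 and 59406 in KO control, and at 13031, 13546 and 12967 and 43226, 40430 and 43614 with IL4. Mmp13, a collagenase, was shifted in the same direction, with log2 differences of 1.97 in control and 1.69 with IL4. Ccr2, the chemokine receptor of inflammatory monocytes, was lower in KO, at 174, 187 and 189 beside 588, 622 and 539.8 in control and 114, 94.3 and 101 beside 296, 291 and 289 with IL4. IL4 lowered Ccr2 in both genotypes by a like amount, -0.99 in WT and -0.83 in KO. Gpr183, the oxysterol receptor that guides immune cells, was lower by -2.42 and -2.47. Cited2 itself fell into this class, with log2 differences of -6.32 and -6.52, and IL4 lowered it in WT by 0.94 ± 0.19 on the log2 scale. In KO its values rested on 8 to 38 reads per library, and on the linear scale its fall was the larger in WT.

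**Figure D5:**
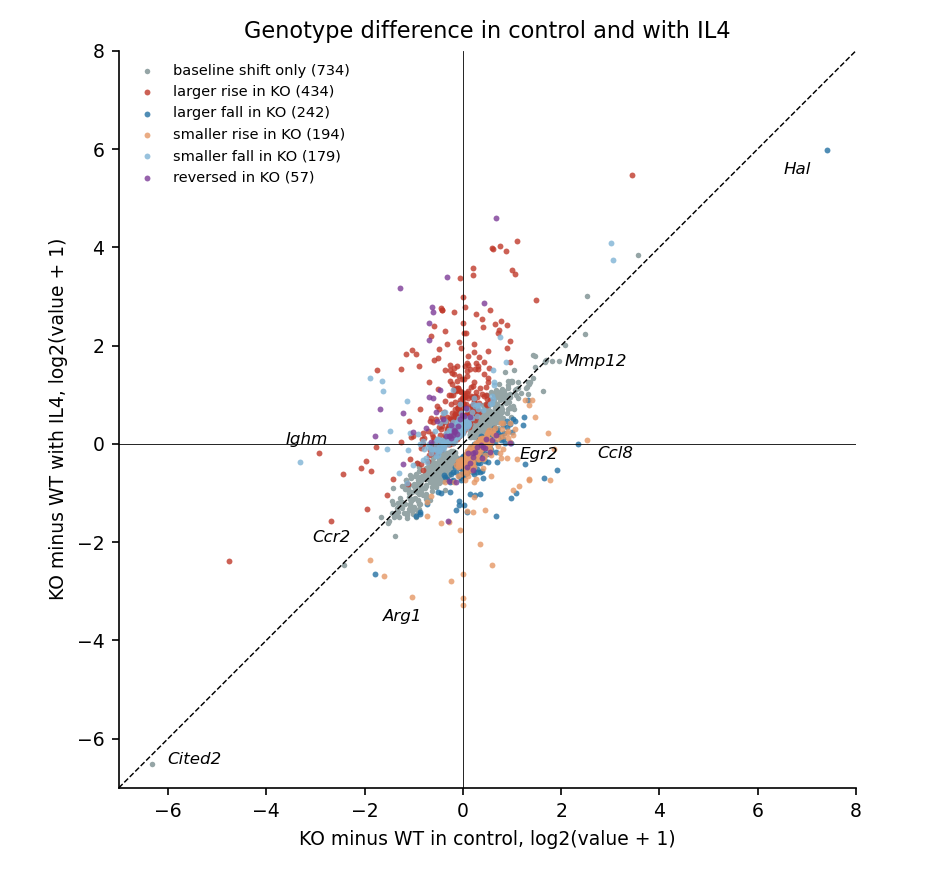
KO minus WT difference in control (horizontal axis) and with IL4 (vertical axis), in log2(value + 1), for genes with a baseline shift only (grey, 734) and for genes with a called interaction, coloured by shape. Baseline shifts such as Mmp12, Ccr2 and Cited2 follow the dashed line of equal differences, Arg1 lies far below it, and Egr2 and Ccl8 lie near 0 on the vertical axis.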

How the data were processed

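RNA of 12 libraries (3 per group) was compared. The deposited signal values are normalised read counts per gene: in each library they are whole reads divided by 1 factor, and whole reads were recovered for 100% of values within 0.05 reads. TopHat2 2.2.1, Cufflinks 2.2.1, Cuffdiff and the builds mm10 and GRCm38 are named in the submitters' processing notes, and their settings are not given in the sources used here. Positions are those of GENCODE M21 on GRCm38.

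Genes that reached a value of 1 in 3 or more of the 12 libraries were fitted on log2(value + 1) with limma 3.58.1 (trend) in R 4.3.3, with Benjamini-Hochberg adjustment over 17050 genes, so that a fold is understated for low genes. The KO LPS library with 1478507 reads is outside this fit. A shape was given from the called interaction and the 2 responses, each at an adjusted p below 0.05. Named genes were a fixed set of IL4 genes, the 6 largest called interactions of each shape with a mean of at least 20 in a group, the 5 largest baseline shifts in each direction, and up to 4 called members of each list with the smallest p; other list members are examples chosen after their values were seen. Members and lists were chosen with earlier results of these data known. Alternatives were other pseudocounts and filters, TMM scaling, median centring, edgeR 4.0.16 and DESeq2 1.42.0 on recovered reads, library weights, a replicate block, the series' 24 libraries and each library left out. Replicate depths bound the precision of low genes.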

Additional observations from a re-analysis of the deposited data

Results flagged for a closer look

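The responses to IL4 of KO and WT differed by the test of the difference itself for 1115 of the 17050 genes, a share of 6.54%. Among the genes that IL4 lowered in WT and raised in KO, the interaction on the log2 scale was 3.726 for Ifit3, 3.410 for Ly6a, 3.293 for Hcar2, 3.135 for Ms4a6b, 2.812 for Cxcl10 and 2.437 for Rsad2. In all 6 the 3 KO libraries with IL4 lay above the 3 WT libraries with IL4, which held for 19.2% of all genes. The 6 were picked by interactions from these same libraries, so this separation is a description and no further support. Hcar2 rested on 2 to 75 reads per library.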

How the results depend on the processing

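No called interaction changed sign in any alternative. Of the 108 named genes with a called interaction, 74 kept the call in all 24 alternatives. Genes called numbered 672 in the fit of all 24 libraries and 3004 with library weights, positive 1609 with weights, and negative 215, 1395 and (DESeq2) 702. At a size of at least 1, weights gave 447. Stronger responses numbered 445 with 24 libraries and 1702 with weights, weaker 189 and 1072, reversed 37 and 168, and baseline shifts 430 with 24 libraries. Interactions with no called response numbered 1 (24 libraries), 5 (without KO LPS replicate 1 only, and without a filter), 4 (a filter at 10), 17 (DESeq2) and 62 (weights). Alternative activation had 5 positive and 18 negative calls with weights, and immediate early genes 7 negative with 24 libraries. Cholesterol genes had 0 (24 libraries, median centring), 2 (23 libraries), 3 (no filter) and 9 (weights) positive calls. The cause was not tested.

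With 1 library left out, calls ranged from 732 (WT IL4 replicate 3) to 1622 (WT control replicate 3), negative calls from 275 (KO control replicate 1) to 805, weaker responses from 215 to 539, reversed from 35 to 84, no called response from 1 to 27, and cholesterol calls from 0 to 6. Interactions that were not called and turned sign were those of Cited2 (0.162 with a pseudocount of 10, -0.399 to 0.071 with 1 library left out), Gpr183 (-0.164 to 0.178), Hist1h4i (-0.013 with median centring, -0.178 to 0.281) and Myo7a (-0.233 to 0.021). Baseline shifts were not run in edgeR, which gives no interval.

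Whether the replicate numbers pair the samples is not known, and correlations of the libraries cannot settle it. Same-numbered libraries of different groups correlated at -0.255 to 0.355 and differently numbered ones at -0.405 to 0.377. For 6 of 12 libraries the best correlation was with their own number. A replicate block gave 1016 calls, 993 of them among the 1115, and 2 cholesterol calls. At 7818719 reads in the shallowest library 1 read is worth 2.44, which limits genes such as Arg1 in control cells.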
